A study of Mus musculus with 65 samples.

Results

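Of 13314 autosomal meiotic DNA double-strand break hotspots listed for wild-type mouse testis, 714 overlapped a wild-type MEI4 peak by 1 bp or more and no wild-type peak of IHO1, HORMAD1 or SYCP3, and these MEI4-alone hotspots are described here. They made up 714 of the 1465 autosomal hotspots with a wild-type MEI4 peak. Of the other 751, 375 also had IHO1, and 376 had HORMAD1 or SYCP3 without IHO1. The members were chosen by these 4 wild-type lists, which marked 11% (MEI4), 4.08% (IHO1), 4.66% (HORMAD1) and 7.56% (SYCP3) of the autosomal hotspots, so the members' wild-type occupancy is a description. "Alone" refers only to peaks called in the wild-type lists, because a peak that was not called does not show that the protein was absent.

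The series holds 65 chromatin immunoprecipitation (ChIP-seq) samples from whole testis of mice all labelled C57BL/6JCrl, in 36 groups of antibody and genotype with mostly 2 samples each. Spermatogenesis was synchronised in every group: male pups of 1.5 days received WIN 18,466, a blocker of retinoic acid, for 7 to 10 days and then 1 injection of retinoic acid. Testes were taken 8 days later, when the labels give 80 to 95% leptotene and zygotene spermatocytes. Beside the wild type, the lists used here come from mice carrying B6;129P2-Prdm9tm1Ymat/J (Prdm9KO), Spo11tm1Mjn (Spo11KO), Mei4tm1Bdm (Mei4KO), Iho1tm1.2Atot (Iho1KO) or Hormad1tm1.2Atot (Hormad1KO). For MEI4, IHO1, HORMAD1 and SYCP3 the authors subtracted the signal of the protein's own knockout (for SYCP3 that of Sycp3tm1Hoog, Sycp3KO), so all lists of 1 protein share that control. There was 1 peak list for each protein and genotype, so no difference has a replicate check. The SYCP3 lists of Spo11KO, Iho1KO and Prdm9KO belong to groups of 1 sample each, and the other 21 lists to groups of 2. The intervals treat hotspots as independent and cover counting error only.

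PRDM9 binds DNA by its zinc fingers and marks the places where the SPO11 complex will cut in early meiotic prophase. MEI4 is an accessory protein of that cutting machinery, and IHO1 helps gather it on the chromosome axis, the proteinaceous core to which HORMAD1 and SYCP3 belong and from which chromatin loops extend. DMC1 coats the single-stranded DNA exposed after a break, so DMC1 ChIP-seq maps hotspots and gives a reading of their strength. CTCF is a chromatin architecture protein that anchors loops.

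Reference promoter sequence lay inside few members. Of 32851 RefSeq promoter windows (250 bases before to 50 after a transcription start, GRCm38.p6, which is the mm10 assembly), 11 lay whole inside 8 of the 714 members. Whole windows lay inside 14 of the 751 hotspots with MEI4 and a partner and inside 1116 of all 13314 autosomal hotspots. The 4 with the highest DMC1 values are shown, up to the start itself, because they are stretches of members' DNA that can be read; those of Gm51891, Gm30255 and Nt5c3 also lay whole inside the wild-type MEI4 peak. Capitals mark the 9-base core of the recognition motif of the B6 form of PRDM9, GNTGCTNCT, searched on both strands.
Gm51891, a RefSeq gene model, chr11:44531142-44531391, + strand: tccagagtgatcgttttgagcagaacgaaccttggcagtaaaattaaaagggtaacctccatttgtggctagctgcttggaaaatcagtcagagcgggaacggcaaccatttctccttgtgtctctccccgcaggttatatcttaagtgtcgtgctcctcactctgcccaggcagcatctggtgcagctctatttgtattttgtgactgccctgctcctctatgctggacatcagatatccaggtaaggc
Gm30255, a RefSeq gene model, chr17:31726668-31726917, + strand: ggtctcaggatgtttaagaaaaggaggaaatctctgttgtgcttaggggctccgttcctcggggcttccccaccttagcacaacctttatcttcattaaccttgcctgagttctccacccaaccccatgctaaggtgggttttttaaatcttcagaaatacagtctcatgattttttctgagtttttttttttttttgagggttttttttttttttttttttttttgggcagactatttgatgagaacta
Nop10, a component of H/ACA ribonucleoprotein particles, chr2:112261676-112261925, + strand: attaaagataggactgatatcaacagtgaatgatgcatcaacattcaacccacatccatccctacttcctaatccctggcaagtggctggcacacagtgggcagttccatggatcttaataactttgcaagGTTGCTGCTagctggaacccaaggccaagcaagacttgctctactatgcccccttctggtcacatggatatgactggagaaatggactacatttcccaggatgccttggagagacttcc
Nt5c3, a pyrimidine nucleotidase, chr6:56901887-56902136, - strand: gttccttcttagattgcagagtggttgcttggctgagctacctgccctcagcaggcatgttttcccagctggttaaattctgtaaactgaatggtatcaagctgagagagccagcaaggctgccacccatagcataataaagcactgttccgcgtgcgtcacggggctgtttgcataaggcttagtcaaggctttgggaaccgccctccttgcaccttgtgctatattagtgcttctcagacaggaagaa
Of the 11 windows, 1 held the motif, that of Nop10. In all windows of the table the share was 7.24%, and among the 1520 windows inside autosomal hotspots 8.36%. No match says only that these letters were not in the window. The Gm51891 hotspot (DMC1 value 1878.5) was found in 7 of the 17 knockout lists of MEI4, IHO1, HORMAD1 and SYCP3, the Gm30255 hotspot (1376.5) in 5, the Nop10 hotspot (1365.5) in 4 and the Nt5c3 hotspot (1341) in 3. All 4 sites had MEI4 peaks in Spo11KO and Hormad1KO, and the Nop10 site was the one without a MEI4 peak in Iho1KO.

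The lists differed much in length. On the autosomes the wild-type lists held 1505 MEI4, 1476 IHO1, 1636 HORMAD1 and 1847 SYCP3 peaks, and those of the knockouts between 60 (MEI4 in Prdm9KO) and 5309 (SYCP3 in Iho1KO). Sequencing depth is unknown, and the part of depth and of calling thresholds in any difference below was not tested.

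The MEI4-alone hotspots were hotspots of upper-middle strength. Their wild-type DMC1 values, in the authors' unit, ran from 32 through a median of 947.75 (exact 95% interval 902 to 991) to 5695.5. The median was 2540 (2391.5 to 2701) where MEI4 had a partner, 101.5 (99 to 104.5) at the 11450 hotspots with none of the 4 proteins, and 128 over all autosomal hotspots. Within the partnered hotspots it was 1892.75 with HORMAD1 or SYCP3 but not IHO1, and 3513 with IHO1. Members thus lay between the unoccupied hotspots and both partnered kinds, with wide overlap of the ranges.

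Strength classes show the same order. When autosomal hotspots were cut into 10 equal classes by DMC1 value, 116 members lay in class 8 (values 319 to 588), 349 in class 9 (588 to 1246) and 213 in class 10 (1246 to 20822.5). MEI4-alone hotspots were 8.71%, 26.2% and 16.0% of all hotspots in these classes, while 658 of the 751 partnered hotspots were in class 10. Among hotspots with MEI4, the share without a partner fell from 95.9% in class 8 to 82.1% in class 9 and 24.5% in class 10. In class 10, the strongest 10% of autosomal hotspots, lay 29.8% of members and 87.6% of partnered hotspots, a difference of -57.8 percentage points (Newcombe 95% interval -61.7 to -53.5).

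**Figure D1:**
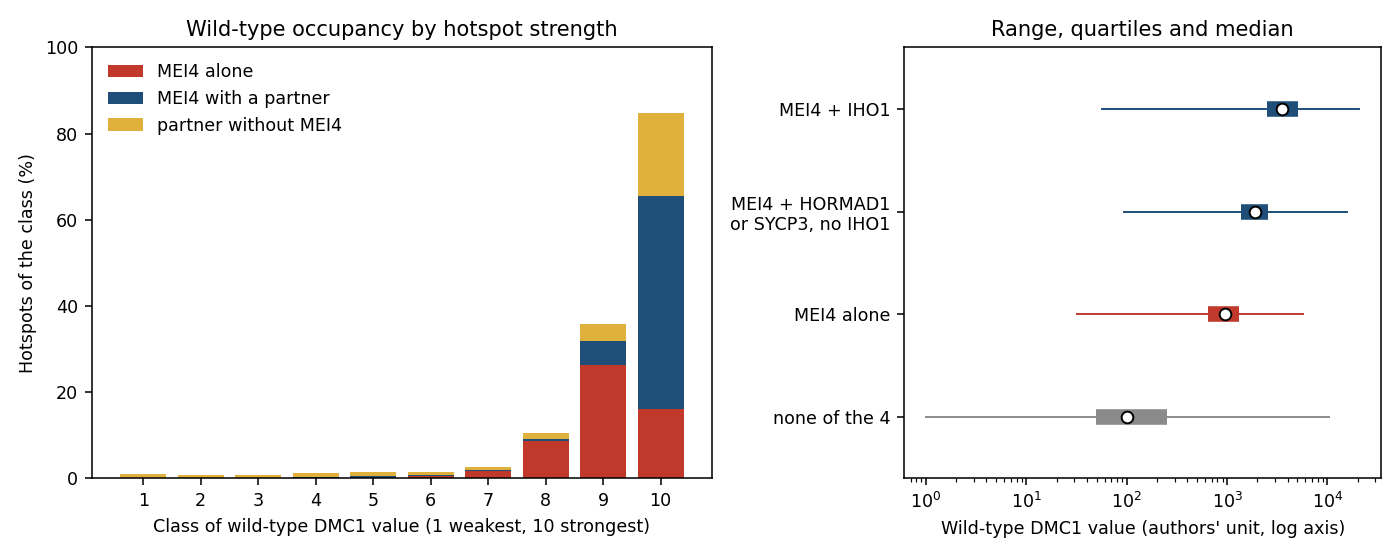
Left, share of autosomal hotspots in each class of wild-type DMC1 value (x axis, 1 weakest to 10 strongest) with MEI4 alone, MEI4 with a partner, or a partner without MEI4 (stacked bars, y axis in percent). Right, wild-type DMC1 value on a log axis for 4 sets of hotspots, with a thin line for the range, a thick line for the quartiles and an open circle for the median; MEI4-alone hotspots are most frequent in class 9 (26.2%), and their median of 947.75 lies between 101.5 and 1892.75.

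The binding sites themselves were compact. Each of the 714 members had its own MEI4 peak, and 2 of these peaks also held a partnered hotspot. In 668 members the centres of hotspot and MEI4 peak were within 500 bp of each other. The MEI4 peak had a median width of 1632 bp in members and of 2528 bp in partnered hotspots, a description since the same list chose them. Hotspot width differed less, with medians of 1978.5 bp (1960 to 1996) and 2124 bp (2102 to 2144).

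Most members had no excluded peak within 5 kb, yet they lay nearer to one than unoccupied hotspots did. The median distance was 209396 bp (181447 to 241316) at members and 310242 bp (301939 to 322201) at hotspots with none of the 4 proteins. The latter were weaker, with a median DMC1 value of 101.5 against 947.75, and distance was not compared within strength classes. The excluded lists also helped to choose both sets, so the distances are a description. The nearest wild-type IHO1, HORMAD1 or SYCP3 peak lay within 5 kb of 36 members (5.04%), within 100 kb of 237 (33.2%) and within 1 Mb of 643 (90.1%). Just inside the threshold were a hotspot in Asz1, a gene of the germline piRNA pathway, at chr6:18094229-18096110 with a SYCP3 peak directly adjoining, and one in Dock3 at chr9:107051045-107053078 with an IHO1 peak 3 bp away. Just outside were a hotspot in Txndc16 at chr14:45152942-45154894, which shared 11 bp with a SYCP3 peak, and chr10:127824897-127826471, which shared 20 bp. The Asz1 and Txndc16 hotspots had IHO1 peaks in Spo11KO and Hormad1KO alike, though the rule puts them on opposite sides.

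MEI4 was called again at most members when SPO11, IHO1 or HORMAD1 was missing, and almost nowhere without PRDM9. In Spo11KO 665 of 714 members (93.1%) had a MEI4 peak against 27.8% of all autosomal hotspots, in Hormad1KO 646 (90.5%) against 27.1%, and in Iho1KO 526 (73.7%) against 19%. In Prdm9KO 1 member did, 0.140% against 0.0601%. These lists share the Mei4KO control with the wild-type list that chose the members, so their values stand side by side and no overlap between them is read as a result.

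How far partnered hotspots exceeded members depended on strength. Shares of partnered hotspots with MEI4 were 95.1% in Spo11KO, 95.9% in Hormad1KO and 88.0% in Iho1KO. The differences, members minus partnered, were -1.94 points (-4.42 to 0.487), -5.40 (-8.06 to -2.83) and -14.3 (-18.3 to -10.4). Compared within 10 classes of DMC1 value (Mantel-Haenszel, Sato interval) they were 2.68 (0.262 to 5.10), -0.170 (-3.13 to 2.79) and -4.32 (-9.15 to 0.502). Over the classes the 2 sets thus no longer differed past the interval in Hormad1KO and Iho1KO, and in Spo11KO members were slightly ahead. Within class 10 by itself, which held most partnered hotspots, MEI4 in Iho1KO was lower at members by -5.75 points (-11.5 to -0.907). Class 10 is wide, and its members were weaker than its partnered hotspots, with median DMC1 values of 1574 and 2799.5. At values from 780 to 1053 the Iho1KO shares were 65.2% of 164 members and 84.8% of 33 partnered hotspots. From 1053 to 1516.5 they were 79.5% and 81.5%, and from 1517.5 to 2613 they were 85.3% and 85.8%. At values from 194.5 to 588 and from 588 to 780, with 8 partnered hotspots each, the member share was the higher one. From 2615 up they were 100% of 9 members and 94.5% of 362 partnered hotspots. With 50 classes the Spo11KO difference was 2.21 (-0.512 to 4.94) and no longer called.

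Against unoccupied hotspots of the same class the MEI4 shares of members were higher, a comparison tilted by the rule. The wild-type MEI4 list, with the same subtracted control, separated members from unoccupied hotspots, so these values are a description. In class 10, Iho1KO MEI4 peaks were found at 181 of 213 members (85.0%) and 94 of 202 hotspots with none of the 4 proteins (46.5%), a difference of 38.4 points (29.7 to 46.4). In class 9 the shares were 69.3% and 35.4%. For Spo11KO the class 9 shares were 94.3% and 74.1%, and for Hormad1KO 89.7% and 61.2%.

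IHO1, absent by rule in the wild type, was called at a majority of members in Spo11KO and in Hormad1KO, but not in Prdm9KO or Mei4KO. It was found at 426 members in Spo11KO (59.7%, Wilson 95% interval 56.0 to 63.2; all autosomal hotspots 14.6%) and at 375 in Hormad1KO (52.5%, 48.9 to 56.2; all 12.7%). In the wild type IHO1 marked 4.08% of autosomal hotspots. The IHO1 lists held 1476 autosomal peaks in the wild type, 1788 in Hormad1KO and 2635 in Spo11KO. The part of list length in these shares was not tested.

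The comparison not set by the wild-type IHO1 list is with the 376 MEI4 hotspots that had HORMAD1 or SYCP3 but, like the members, no wild-type IHO1. Of these, 84.0% had IHO1 in Spo11KO and 80.3% in Hormad1KO, so members were lower by -24.4 points (-29.3 to -19.0) and -27.8 points (-33.0 to -22.2). The 376 were also stronger, with a median DMC1 value of 1892.75 against 947.75 at members. This comparison was not made within strength classes, so the part of strength in it was not tested. Against all partnered hotspots the differences were -24.9 (-29.3 to -20.4) and -29.8 (-34.2 to -25.1). Within 10 classes of DMC1 value these narrowed to -10.9 and -16.1, and within 50 classes to -8.21 and -11.9, each still with an interval below 0. In class 10, IHO1 in Spo11KO was at 77.9% of members, 86.6% of partnered and 41.6% of unoccupied hotspots, so members lay between, and differed from both (-8.69, -15.2 to -2.91, and 36.4, 27.2 to 44.6). Members of class 10 were weaker than its partnered hotspots, with median DMC1 values of 1574 and 2799.5.

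In Mei4KO IHO1 was called at 1 of 714 members (0.140%; all autosomal 0.293%), at chr3:16024907-16027294, a site that also had a CTCF peak. In Prdm9KO there were 2 (0.280%; all 0.150%).

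The axis proteins were called at fewer members than IHO1. HORMAD1 in Spo11KO was found at 96 members (13.4%, 11.1 to 16.1; all autosomal 5.3%) and SYCP3 in Spo11KO at 94 (13.2%, 10.9 to 15.8; all 5.95%). Partnered hotspots, selected for these proteins in the wild type, had 46.2% and 40.1%, which makes the differences of -32.8 (-37.0 to -28.3) and -26.9 points (-31.1 to -22.6) in part a product of the rule. Within 50 classes of DMC1 value they were -14.7 and -14.2.

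Unoccupied hotspots give a comparison the rule did not tilt in this way, since both sets lacked the 3 partners. In class 9, HORMAD1 in Spo11KO was at 14.6% of members and 2.57% of unoccupied hotspots, a difference of 12.0 points (8.48 to 16.2). SYCP3 in Spo11KO was at 11.7% and 2.80%, a difference of 8.94 points (5.69 to 12.9). In class 10 the differences were 7.03 (0.520 to 13.5) and 13.9 points (8.37 to 19.8). At like strength, then, a wild-type MEI4 peak went with more axis peaks in Spo11KO.

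In the other knockouts axis proteins were rare at members. SYCP3 in Iho1KO was at 25 members (3.50%; all autosomal 6.56%) and HORMAD1 in Iho1KO at 19 (2.66%; all 1.43%). HORMAD1 in Mei4KO was at 12 (1.68%; all 2.04%), SYCP3 in Mei4KO at 4 (0.560%; all 1.11%) and HORMAD1 in Prdm9KO at 1 (0.140%; all 0.391%). SYCP3 in Prdm9KO was at 0 of 714 (all 1.1%), which allows a share of up to 0.420%. Except for HORMAD1 in Iho1KO, each of these shares lay below that of all hotspots. Against unoccupied hotspots of like strength some shares were higher at members in the lower classes. SYCP3 in Iho1KO was higher by 6.14 points (2.71 to 12.3) in class 8 and 1.88 (0.411 to 4.16) in class 9. In class 10 it was 1.85 (-0.771 to 4.91), not called. SYCP3 in Mei4KO was higher by 2.42 (0.659 to 7.16) and HORMAD1 in Mei4KO by 2.44 (0.213 to 7.54) in class 8. Neither Mei4KO list differed past the interval in class 9 or 10. Over all values HORMAD1 in Mei4KO was at 1.62% of unoccupied hotspots, near the member share.

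SYCP3 peaks called without HORMAD1 were rarer at members than at partnered hotspots, a difference tilted by the rule, since the wild-type SYCP3 list with the same control helped to choose both sets. In Hormad1KO, SYCP3 was at 9 members (1.26%, 0.665 to 2.38; all autosomal 1.46%) and at 115 partnered hotspots (15.3%, 12.9 to 18.1), a difference of -14.1 points (-16.9 to -11.4). Within 10 classes it was -13.7 and within 50 classes -7.94. In class 10, SYCP3 in Hormad1KO was at 1.88% of members, 15.0% of partnered and 1.49% of unoccupied hotspots. Members and unoccupied hotspots differed by 0.393 points (-2.62 to 3.41) in class 10 and -0.0639 (-0.779 to 1.27) in class 9, neither called. In class 8 members were higher by 3.45 points (1.32 to 8.53), and over all values by 1.10 (0.5004 to 2.22).

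**Figure D2:**
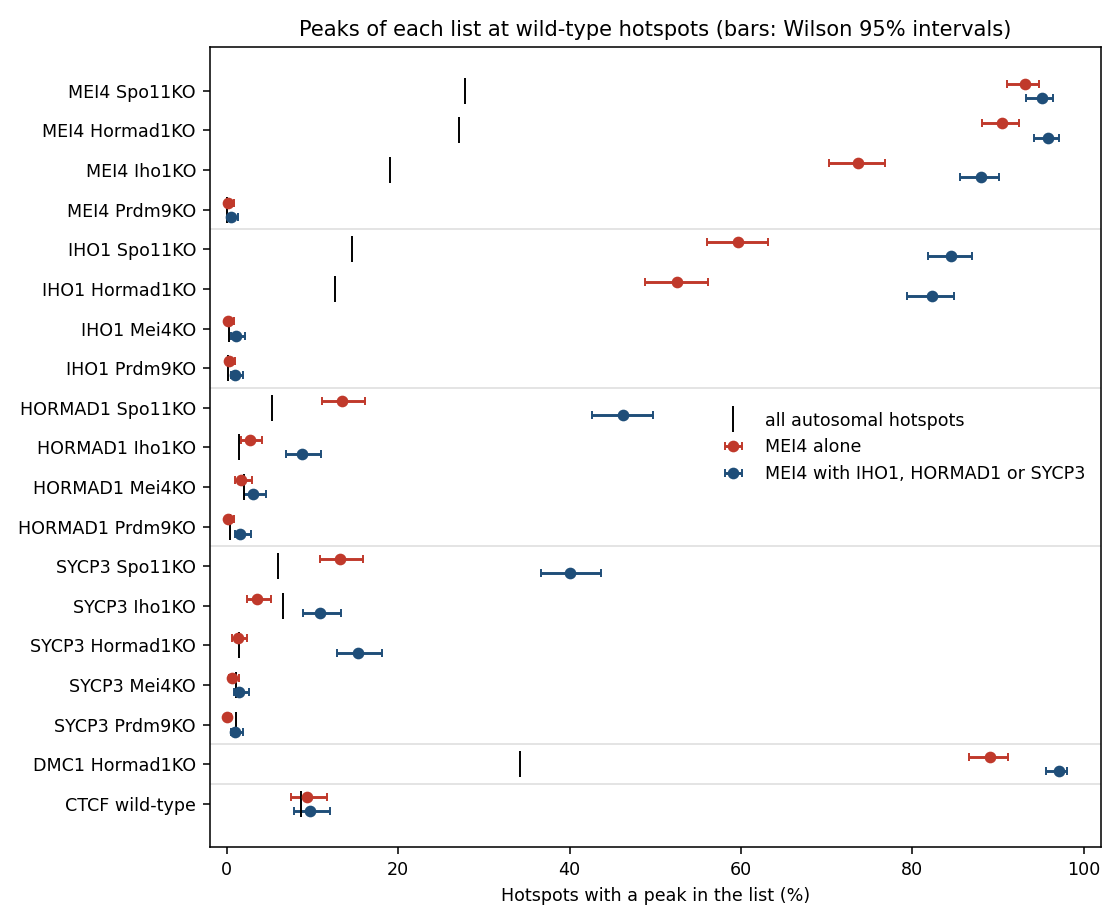
Percent of hotspots (x axis) with a peak in each of 19 lists (y axis), for the 714 MEI4-alone hotspots (red), the 751 with MEI4 and a partner (blue) and all 13314 autosomal hotspots (black ticks); bars are Wilson 95% intervals. For members, MEI4 shares in Spo11KO, Hormad1KO and Iho1KO lie between 73.7% and 93.1%, IHO1 shares in Spo11KO and Hormad1KO at 59.7% and 52.5%, and no HORMAD1 or SYCP3 share is above 13.4%.

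Within Spo11KO most members had MEI4 by itself or MEI4 with IHO1, and HORMAD1 and SYCP3 were mostly not called together. MEI4 with IHO1 and neither axis protein was the most common state, at 292 members (40.9%; all autosomal 8.34%), followed by MEI4 by itself at 220 (30.8%; all autosomal 13.1%). MEI4 and IHO1 were joined by SYCP3 at 51 members (7.14%; all 1.48%), by HORMAD1 at 49 (6.86%; all 1.94%) and by both at 30, and none of the 4 was called at 43 (6.02%; all 69.4%). An axis protein with or without the others was called at 157 members (22.0%; all 8.78%). The full set of 4 was found at 4.20% of members against 22.9% of partnered hotspots and 2.08% of all. IHO1 was called with MEI4 at 422 of its 426 member sites (99.1%, 97.6 to 99.6), near the 97.3% (95.8 to 98.3) of partnered and the 95.0% (93.99 to 95.9) of all IHO1 sites among hotspots. Both together marked 59.1% of members and 13.8% of all hotspots. HORMAD1 was called with IHO1 at 80 of its 96 member sites (83.3%; 80% of its sites at all hotspots). In contrast, of the 49 members that had lost the MEI4 call in Spo11KO, 4 had IHO1 (8.16%, 3.22 to 19.2), against 63.5% of those that kept it. The 49 were also weaker, with a median DMC1 value of 542.5 against 976.5, and the part of strength was not tested.

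Any partner was called in Spo11KO at 451 members (63.2%; all autosomal 17.5%). In class 10 the share was 79.3%, against 44.1% of unoccupied hotspots, a difference of 35.3 points (26.2 to 43.6). IHO1 without either axis protein, at 294 members (all 8.73%), was more frequent at class 10 members than in both other sets, at 53.1% against 32.2% of partnered hotspots, a difference of 20.8 points (13.2 to 28.3), and 32.7% of unoccupied ones, a difference of 20.4 points (10.9 to 29.4). The rule itself tilts the comparison with partnered hotspots, chosen for having these proteins in the wild type. In class 9 members and partnered hotspots did not differ past the interval in that state, at 1.55 points (-10.7 to 12.8). Over all values that state was at 41.2% of members and 38.8% of the 376 MEI4 hotspots with HORMAD1 or SYCP3 but no IHO1. That difference was 2.35 points (-3.80 to 8.37), not called, and was not taken within strength classes.

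In Hormad1KO MEI4, IHO1 and DMC1 without SYCP3 were called at 356 members (49.9%; all autosomal 11.1%), and MEI4 and DMC1 without the other 2 at 240 (33.6%; all 11.7%). MEI4 stood by itself at 34 (4.76%; all 2.83%), DMC1 by itself at 27 (3.78%; all 9.74%), and none of the 4 was called at 35 (4.90%; all 62.6%). Of the 375 members with IHO1, 369 had MEI4 (98.4%, 96.6 to 99.3), near the 97.9% (96.4 to 98.8) of partnered and the 96.7% (95.7 to 97.4) of all IHO1 sites among hotspots. The pair marked 51.7% of members and 12.3% of all hotspots. MEI4 and DMC1 were both called at 604 members (84.6%; all 24%), and DMC1 at 93.5% (91.3 to 95.2) of members with MEI4 in Hormad1KO but 47.1% (35.7 to 58.8) of the 68 without. The 68 were also weaker, with a median wild-type DMC1 value of 707.25 against 982.75, and the part of strength was not tested. In Iho1KO, where the Iho1 gene is disrupted, MEI4 stood without HORMAD1 and SYCP3 at 498 members (69.7%; all autosomal 17.7%), and 180 had none of the 3 (25.2%; all 74.9%). A MEI4 peak together with an axis peak in Iho1KO was found at 28 members (3.92%; all autosomal 1.29%).

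Stronger members had IHO1 more often. In 4 equal classes of the members' own DMC1 values, from the weakest (32 to 648) to the strongest (1323.5 to 5695.5), IHO1 in Spo11KO was at 40.2%, 55.6%, 61.5% and 81.5%. IHO1 in Hormad1KO was at 40.8%, 42.1%, 54.2% and 73.0%, and MEI4 in Spo11KO at 83.2%, 94.4%, 95.5% and 99.4%. HORMAD1 in Spo11KO was at 8.38% in the first of these classes and 17.4% in the last, with Wilson intervals that overlapped (5.14 to 13.4 and 12.5 to 23.7). The difference between outer classes was thus wider in points for IHO1 than for HORMAD1, which started from a lower share. Members with IHO1 in Spo11KO had a median DMC1 value of 1063.5 (998.5 to 1136.5) and those without 794 (714.5 to 871.5).

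**Figure D3:**
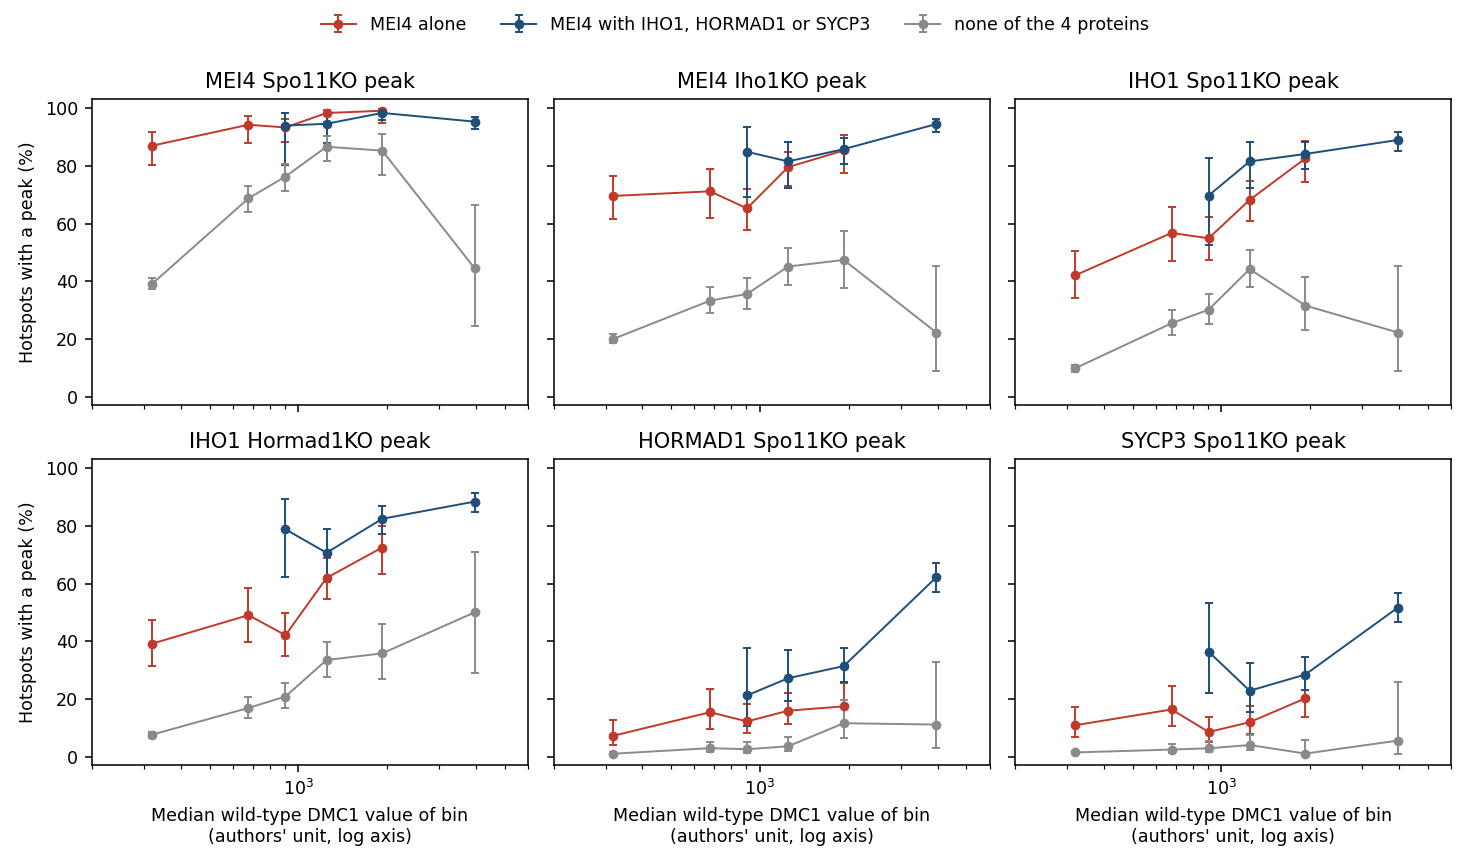
Percent of hotspots with a peak (y axis) against the median wild-type DMC1 value of the bin (x axis, log) for 6 lists; red, MEI4 alone, blue, MEI4 with a partner, grey, none of the 4 proteins. Points need 10 hotspots and bars are Wilson 95% intervals. Members lie above unoccupied hotspots of like value in all 6 panels in each bin that holds 10 members, and below partnered ones for HORMAD1 and SYCP3.

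The DMC1 map of Hormad1KO, measured apart from the other lists, kept 636 of 714 members (89.1%, 86.6 to 91.2), against 34.2% of all autosomal hotspots and 97.1% of partnered ones. The difference from partnered hotspots, -7.99 points (-10.7 to -5.45), was not called within 10 classes of DMC1 value, at -0.993 (-3.75 to 1.76), and was 1.26 within 50. Members lost from the Hormad1KO map were weaker, with a median wild-type value of 583.25 (455 to 711.5) against 996 (952.5 to 1046).

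At like wild-type strength the kept members had higher Hormad1KO values than unoccupied hotspots. Over the 636 kept members the Hormad1KO DMC1 value ran from 13 through a median of 124.5 to 2438.5, and its median ratio to the wild-type value was 0.130. The 2 maps are on their own scales, so the ratio is read only against other hotspots. Over all values it was 0.130 (0.115 to 0.148) at members, 0.144 (0.130 to 0.155) at partnered and 0.154 (0.147 to 0.161) at unoccupied hotspots. The kept unoccupied hotspots were weaker, with a median wild-type value of 378.5 against 996. Only kept hotspots have a ratio, and in class 9 members were kept more often than unoccupied ones, by 10.8 points (6.40 to 14.6). In class 10 the median ratio was 0.109 (exact 95% interval 0.0914 to 0.134) at 208 members, 0.140 (0.126 to 0.152) at 651 partnered hotspots and 0.0648 (0.0547 to 0.0745) at 193 unoccupied ones. In class 9 it was 0.115 (0.103 to 0.142), 0.179 (0.130 to 0.262) and 0.0843 (0.0788 to 0.0915). In both classes the interval of members lay above that of unoccupied hotspots and overlapped that of partnered ones. As percentiles among the hotspots of both maps, class 10 members went from a median of 77.8 to 74.5, and unoccupied class 10 hotspots from 78.1 to 63.8. Across members the rank correlation of the 2 values was 0.312, and across partnered hotspots 0.559, a description over 636 and 729 hotspots that share both libraries.

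**Figure D4:**
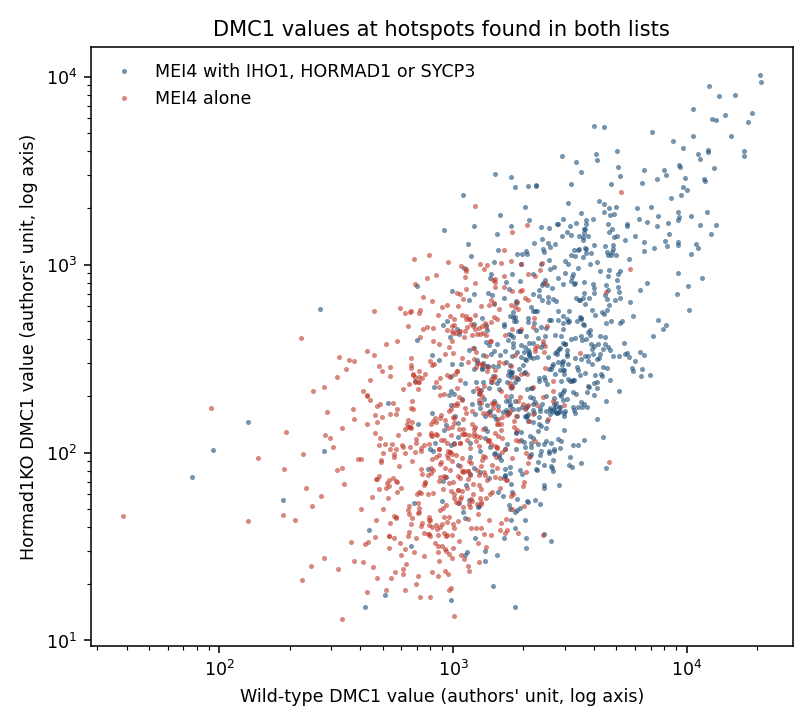
DMC1 value in Hormad1KO (y axis, log) against wild type (x axis, log), in the authors' units, for the 636 MEI4-alone (red) and 729 partnered hotspots (blue) in both maps. The red points spread from 13 to 2438.5 on the y axis over a narrower x range than the blue ones.

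CTCF did not distinguish the members as a whole. A wild-type CTCF peak overlapped 67 members (9.38%, 7.46 to 11.7), 8.61% of all autosomal hotspots and 9.72% of partnered ones, a difference of -0.337 points (-3.36 to 2.71). Within 10 classes of DMC1 value members were lower by -4.04 points (-7.81 to -0.264), and within 50 classes by -7.11. The class 9 shares were 10.0% of members, 21.1% of 76 partnered hotspots and 4.44% of unoccupied ones. In class 10, which held 658 partnered hotspots, members and partnered hotspots differed by -0.860 points (-4.44 to 3.77), not called. In class 8, with 5 partnered hotspots, the difference was -29.7 points (-66.8 to -0.594). The authors' CTCF score had a median of 1.72 at these members, from 0.231 to 4.65, and of 1.92 over all CTCF peaks.

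The 67 CTCF members differed from the other 647 past the interval in 7 of 18 lists. MEI4 in Iho1KO was less frequent at them by -13.8 points (-26.2 to -2.46), MEI4 in Hormad1KO by -10.9 (-22.1 to -2.84) and DMC1 in Hormad1KO by -11.0 (-22.4 to -2.59). HORMAD1 was more frequent in Mei4KO, by 6.38 points (2.00 to 15.2), and in Iho1KO, by 5.30 (0.829 to 14.2), SYCP3 in Hormad1KO by 3.55 (0.415 to 11.4) and IHO1 in Mei4KO by 1.49 (0.130 to 7.98), the last resting on 1 site. Partnered hotspots also had HORMAD1 more often at CTCF peaks, at 12.3% against 2.06% in Mei4KO and 24.7% against 7.08% in Iho1KO. Their DMC1 values overlapped those of the other members, with medians of 902 (785 to 1010) and 952.5 (908 to 998).

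Members lay in genes more often than the other hotspots. A protein-coding gene of the RefSeq table overlapped 486 of 714 members (68.1%, 64.6 to 71.4), against 57.4% of all autosomal hotspots, 53.8% of partnered and 57.1% of unoccupied ones. The difference from partnered hotspots was 14.3 points (9.29 to 19.1), and it was 16.2 (10.1 to 22.3) within 10 classes of DMC1 value and 13.5 (8.54 to 18.5) within chromosomes. The member share was the higher one on 15 of 19 chromosomes. Among partnered hotspots the share was 59.3% without IHO1 and 48.3% with IHO1, so the 3 kinds of MEI4 hotspot lay in the order alone, axis, IHO1. In class 10, 70.9% of members, 54.1% of partnered and 47.5% of unoccupied hotspots were in genes. This measure was added after the data were seen.

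**Figure D5:**
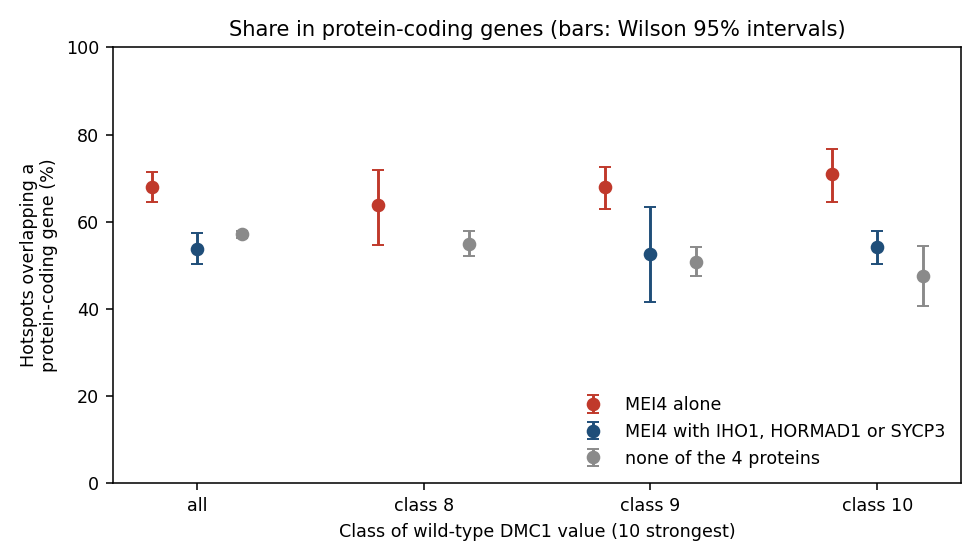
Percent of hotspots overlapping a protein-coding gene (y axis) for all hotspots of a set and for DMC1 value classes 8 to 10 (x axis); red, MEI4 alone, blue, MEI4 with a partner, grey, none of the 4 proteins. Bars are Wilson 95% intervals, and class 8 holds too few partnered hotspots to plot. Members lie highest in every group, between 63.8% and 70.9%, though in class 8 the difference from unoccupied hotspots was not called.

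Gene starts and ends showed no such pattern. An end of a protein-coding gene lay within 1 kb of 51 members (7.14%; all autosomal 13.3%) and of 6.52% of partnered hotspots, a difference of 0.618 points (-1.98 to 3.25). A transcription start lay within 1 kb of 33 members (4.62%; all 10.8%) and of 3.73% of partnered ones. Both kinds of MEI4 hotspot were below the 14.2% of unoccupied hotspots near a gene end. Those are mostly weaker: in class 9 members were above unoccupied hotspots by 3.48 points (0.704 to 6.91), and in class 10 by 3.13 (-1.05 to 7.50).

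The strongest members were found in many lists. The highest DMC1 value, 5695.5, was at chr3:95734204-95736399 next to Ecm1, an extracellular matrix gene, with MEI4 in Spo11KO, Iho1KO and Hormad1KO, IHO1 in Hormad1KO and HORMAD1 in Iho1KO. A hotspot in Arih1, a ubiquitin ligase gene, at chr9:59483583-59485772 (5207) had a SYCP3 peak only 64 bp away in the wild type, and IHO1 in Spo11KO and Hormad1KO. A hotspot in Stx11, a syntaxin gene, at chr10:12952150-12953794 had a value of 4668 in the wild type and of 89.5 in Hormad1KO. The Arih1 hotspot had 2438.5 there, the highest Hormad1KO value of any member. A hotspot in Neb, which encodes the muscle protein nebulin, at chr2:52158546-52160720 (4510.5) was 2928333 bp from the nearest excluded wild-type peak and yet was in 8 knockout lists, HORMAD1 and SYCP3 in Spo11KO included.

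The number of knockout lists per member had a median of 4 of 17, with quartiles of 3 and 5 and a range from 0 to 10. Partnered hotspots had a median of 6, from 1 to 13. In 5 or more lists were 42.0% of members, 81.5% of partnered hotspots and 10.3% of all. In class 10 the shares were 59.6% of members, 83.9% of partnered and 24.3% of unoccupied hotspots. The rule tilts these comparisons, since wild-type lists of the same 4 proteins chose the sets. Members of class 10 were also weaker than its partnered hotspots, with median DMC1 values of 1574 and 2799.5. The highest member, chr9:62252793-62254727 (1514), lay outside annotated genes and was in 10 lists, with all 4 proteins in Spo11KO, MEI4, HORMAD1 and SYCP3 in Iho1KO, and MEI4, IHO1 and SYCP3 in Hormad1KO. The Dock3 hotspot named above, one in Parp4 at chr14:56647832-56649795 and one near the noncoding gene Gm32338 at chr10:41100718-41102581 were in 9 each. The Dock3 and Parp4 sites had an excluded wild-type peak 3 and 105 bp away, whereas the Gm32338 site had none within 255134 bp. A close excluded peak was thus not shared by all members found in many lists.

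In no knockout list were 7 members (0.980%), against 58.7% of all autosomal hotspots. The 5 with the highest values were at chr4:14202908-14204637 (1000.5), at chr3:154510564-154512521 (961.5), in Il11 at chr7:4774076-4776045 (704), in Cdh6, a cadherin gene, at chr15:13143166-13145323 (583) and in Larp4b at chr13:9161294-9163507 (542.5). The chr3 and Larp4b sites were still in the Hormad1KO DMC1 map, with values of 18.5 and 21.5.

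The few members with Prdm9KO peaks were weak and lay near chromosome ends. They were chr13:119427704-119430388 at Paip1 (DMC1 value 193.5; MEI4 and IHO1), chr9:124254019-124255984 (146.5; IHO1) and chr4:156212998-156214983 in Perm1 (32; HORMAD1). They lay 891, 239 and 143 kb before the last position that any list held on chromosomes 13, 9 and 4. None of the 3 had a MEI4 peak in Spo11KO, Iho1KO or Hormad1KO, which sets them apart from the great majority of members. The Perm1 hotspot was the weakest member, under a MEI4 peak of 36637 bp.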

How the data were processed

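ChIP-seq peaks came from 24 lists, 1 for each antibody and genotype, deposited by the authors as positions. The labels' series text says that the signal of the matching knockout was subtracted before deposit. The submitters' processing notes name mm10, Bowtie2 and MACS2; their roles, the thresholds and how replicates were joined are not given in the sources used here. The DMC1 value is the authors' signal for each hotspot, in a unit the deposited lists do not name. The CTCF value is the authors' score for each peak, as deposited. Depth is unknown.

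Hotspots were those of the wild-type DMC1 list on the 19 autosomes. A hotspot had a peak when they shared 1 bp. The members and lists were chosen with earlier results of these data known. Shares carry Wilson and differences Newcombe 95% intervals, within-class differences the Mantel-Haenszel estimate with Sato's interval, and medians the exact order-statistic interval. A difference was called when its interval left out 0; there are no p-values, and intervals are not adjusted for the number of shares compared. The scripts (Python 3.11.15, numpy 2.4.6, pandas 2.3.3, scipy 1.17.1, matplotlib 3.10.9) were tested on simulated data.

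Sites were named by rule: the 5 strongest and 3 weakest members, the 5 in most and in no knockout lists, those with Prdm9KO peaks, those nearest the 1 bp threshold and, for counts of 5 or fewer, the sites counted. One site that the rule names is not reported here. RefSeq tables of GRCm38.p6 gave genes and promoter windows. Gene overlap, transcription starts and 50 value classes were added after seeing the data. Motifs at hotspot centres and the PRDM9 samples were not analysed here.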

Additional observations from a re-analysis of the deposited data

How the results depend on the processing

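Of 210 alternative values over 24 results and 13 settings, 170 kept direction and call, 17 became called, 11 lost the call, 11 changed sign and 1 moved. No paired analysis was possible because each group gave 1 list, and for the same reason no replicate could be left out. Differences below are members minus partnered hotspots in percentage points, and the cause was not tested. With 1 hotspot kept per MEI4 peak, or a 5 kb margin around excluded peaks, every result kept its direction and call. With an overlap of 50% of the shorter interval the median DMC1 value of members was 1010.25, and differences were -0.617 for MEI4 in Prdm9KO, -0.803 for IHO1 in Prdm9KO, -1.61 for HORMAD1 in Mei4KO, -1.05 for SYCP3 in Mei4KO (these 4 now called) and -0.556 for gene ends (reversed). With a 1 kb window at the hotspot centre, IHO1 in Prdm9KO was -0.897, SYCP3 in Mei4KO -1.10 (both now called) and gene ends -0.112 (reversed). Within 10 classes of DMC1 value, MEI4 in Spo11KO was 2.68 and gene ends -1.24 (both reversed). MEI4 in Iho1KO was -4.32, MEI4 in Hormad1KO -0.170 and DMC1 in Hormad1KO -0.993 (no longer called). MEI4 in Prdm9KO was -0.916, IHO1 in Prdm9KO -1.22, HORMAD1 in Mei4KO -2.91, SYCP3 in Mei4KO -1.26 and CTCF -4.04 (now called). Within 50 classes, an alternative added after seeing the data, MEI4 in Spo11KO was 2.21, MEI4 in Hormad1KO 1.36, DMC1 in Hormad1KO 1.26 and gene ends -1.33 (reversed), MEI4 in Iho1KO -0.951 and IHO1 in Mei4KO -0.844 (no longer called), and HORMAD1 in Mei4KO -2.87 and CTCF -7.11 (now called). Against MEI4 and IHO1 hotspots, MEI4 in Prdm9KO was -0.927, IHO1 in Prdm9KO -1.59, SYCP3 in Mei4KO -1.31 (now called) and CTCF 1.38 (reversed). Against MEI4 hotspots with HORMAD1 or SYCP3 and no IHO1, MEI4 in Prdm9KO was 0.140 and IHO1 in Prdm9KO 0.280 (reversed), MEI4 in Spo11KO -3.41 (now called), and IHO1 in Mei4KO -0.126, HORMAD1 in Prdm9KO -0.658, HORMAD1 in Iho1KO -1.59 and SYCP3 in Prdm9KO 0 (no longer called). In the stronger 50% of hotspots IHO1 in Mei4KO was -0.800 and SYCP3 in Prdm9KO -0.403 (no longer called). Shares of 1 or 2 members, as in Prdm9KO, rest on too few hotspots to read.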

Other observations

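Members inside and outside protein-coding genes differed in some lists, a comparison added after seeing the data. MEI4 in Iho1KO was called at 77.8% of the 486 members in genes and 64.9% of the 228 outside, a difference of 12.9 points (Newcombe 95% interval 5.79 to 20.1). For partnered hotspots that difference was 6.12 points (1.44 to 10.9), and the 2 differences were not tested against each other. Among members, IHO1 in Hormad1KO differed by 8.21 points (0.360 to 15.9) and DMC1 in Hormad1KO by 6.50 (1.50 to 12.2), both higher in genes, whereas IHO1 in Spo11KO differed by -1.91 (-9.45 to 5.84). The median wild-type DMC1 value was 982.75 in genes and 880.25 outside, and the part of strength in these differences was not tested.

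The 9 members with SYCP3 in Hormad1KO included the hotspots in Dock3, Parp4 and Papln and those at Gm32338 and chr9:62252793-62254727, all in 8 or more lists. Of the 9, chr14:54321158-54323327 had a higher DMC1 value in Hormad1KO (1065) than in the wild type (681.5), and so did chr1:171468342-171470611 (568 and 460). Over the kept members the median ratio was 0.130. Both sites were singled out after their values were seen. At the 4 sites with SYCP3 in Mei4KO, which were the Gm32338 hotspot and those in Zfp956, Papln and Lhx4, MEI4 was called in Spo11KO and Hormad1KO.

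Members lay scattered over the autosomes. The nearest other member was a median of 874 kb away, the nearest partnered hotspot 921 kb and the nearest hotspot of any kind 47.8 kb. Another member lay within 100 kb of 80 members (11.2%), and another partnered hotspot within 100 kb of 55 partnered ones (7.32%). The share of MEI4 hotspots without a partner ran from 36.8% on chromosome 8 (28 of 76) to 63.2% on chromosome 19 (24 of 38), and was 52.4% in the last 1 Mb before the last listed position (11 of 21).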
